A study of Homo sapiens with 6 samples.

Results

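Keratins, vimentin, nestin and the nuclear lamins are the intermediate filament proteins of an epithelial cell and of its nucleus. All protein-coding genes named KRT followed by a number, with or without a letter A, B or C, were taken as keratins, and VIM, NES, LMNA, LMNB1 and LMNB2 were added. This gave 60 genes of the 19692 protein-coding genes listed, of which 55 were keratins, 29 of type I and 26 of type II. RNA came from MCF10A, an immortalised and non-tumorigenic human breast epithelial cell line, whose medium held epidermal growth factor, hydrocortisone and insulin. For 3 libraries the cells received an siRNA against PDCD4 at 10 nM by reverse transfection (siPDCD4), and 3 libraries came from cells given a control siRNA (siCT), whose target is not stated in the sources used here. RNA was taken 48 h after transfection. The PDCD4 siRNA was a commercial ON-TARGETplus product, and all libraries are from the same cell line. PDCD4 is a tumour suppressor that binds RNA, and the question asked of these genes was whether their RNA levels differed once it was silenced.

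Intermediate filaments are rope-like polymers that give cells and nuclei mechanical strength. Keratins assemble only as pairs of an acidic type I and a basic or neutral type II chain, so KRT5 pairs with KRT14 in basal cells, KRT8 with KRT18 in simple epithelia, and KRT6 isoforms with KRT16 or KRT17 in stressed or wounded epithelium. Vimentin is a type III protein that forms filaments on its own and is best known from mesenchymal cells. Lamins A and C, both made from LMNA by alternative splicing, and lamins B1 and B2 line the inner nuclear membrane. Nestin, encoded by NES, is known from progenitor cells.

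Estimated counts per library lay between 13410441 and 21828931, and siCT replicate 3 had the lowest total and stood apart from the other 5 libraries on the first principal component. PDCD4 itself was at 90.4, 89.0 and 61.1 CPM in the siCT libraries 1, 2 and 3, and at 9.15, 7.43 and 8.62 CPM in siPDCD4 replicates 1, 2 and 3. CPM are counts scaled to equal library size, with an allowance for transcript length, and they serve to compare a gene between libraries. Its log2 fold change was -3.25 ± 0.17 (SE), and edgeR's quasi-likelihood test gave an adjusted p of 2.15e-05. All 10 markers of breast epithelium examined, among them CDH1, EPCAM and TP63, had a mean of at least 1 TPM (a level per transcript length within a library, used to compare genes). The endothelial markers PECAM1, VWF and CDH5 were all below that level, and 1 of 5 fibroblast markers, COL1A1, reached it. Of 3 leukocyte markers, CD3E was listed at 0, PTPRC did not exceed 0.0600 TPM and CD68 was between 6.19 and 8.43 TPM. Of 3 markers of contractile myoepithelium, ACTA2 was between 7.85 and 10.2 TPM and MYH11 and CNN1 were below 1 TPM in every library. Of 4 markers of hormone-responsive luminal cells, ESR1 did not exceed 0.196 TPM and PGR was listed at 0, while GATA3 and FOXA1 lay between 1.22 and 3.25 TPM. Nothing in the labels says whether replicates were separate cultures, so the p-values reflect variation among these 6 libraries that may be technical.

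Of the 60 genes, 21 passed the filter on low counts and were tested, 17 keratins together with VIM, LMNA, LMNB1 and LMNB2. The same 21 genes had a siCT mean of at least 1 TPM. Of the other 39, 27 had no count in any library. A count of 0 allows up to 0.147 to 0.238 CPM, depending on the library, on the basis of 3 counts and of counting error only. The epidermal keratins KRT1 and KRT2 and the corneal keratins KRT3 and KRT12 were among those at 0. For KRT20, KRT23, KRT39 and KRT40 some annotated transcripts were not among those analysed here, so their count of 0 covers only the transcripts that were. A further 12 genes had some counts, never more than 14 in a library and never more than 0.404 TPM. Of these, KRT13, KRT4, KRT222, KRT19, KRT75 and NES had at least 1 count in every library. KRT19, a simple epithelial keratin of luminal breast cells, thus had 1 or 2 counts per library, and nestin had between 2 and 9.

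In siCT cells the highest levels per length were those of the type II keratins KRT7, KRT81 and KRT5. KRT7, a keratin of simple and ductal epithelia, was at 1774, 1907 and 1829 TPM in siCT replicates 1, 2 and 3. KRT81, a type II keratin of the hair cortex, was at 1647, 1942 and 1579 TPM in the same libraries, and the ranges of both genes overlapped. KRT5, the type II keratin of basal cells, was at 1135, 1206 and 938 TPM, below KRT7 and KRT81 in every siCT library. The position of KRT7 at the head depended on the transcripts summed, since its protein-coding transcripts alone gave a mean of 1220 TPM, below the 1723 TPM of KRT81.

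KRT17, a type I keratin of basal and wounded epithelium, was the highest of its type, with a siCT mean of 626 ± 42.2 TPM (SD, n = 3). Its level overlapped that of KRT6A, the wound-induced type II keratin, which was at 618 ± 35.0 TPM. KRT18 and KRT8, the pair of simple epithelia, were at 261 ± 37.0 and 152 ± 17.1 TPM. KRT14, the type I partner of KRT5, was much lower than KRT5 at 90.7 ± 22.6 TPM, and KRT15, another basal type I keratin, was at 42.0 ± 8.79 TPM. KRT16 was at 21.6 ± 0.850 TPM. The KRT17 to KRT16 ratio of these wound-associated type I keratins was therefore 28.9 ± 1.56 in siCT.

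Vimentin ranked among the 9 genes with at least 100 TPM, and its siCT values of 291, 318 and 305 TPM were above those of KRT18 in every library. LMNA, at 247 ± 30.5 TPM, overlapped KRT18. LMNB1 and LMNB2 were at 68.5 ± 6.86 and 48.2 ± 3.13 TPM, and their ranges did not overlap. The remaining tested members lay between the 35.8 TPM of KRT86 and the 1.55 TPM of KRT85, both hair keratins, and held KRT83, KRT10, KRT6B, KRT80 and KRT6C in that order, of which KRT83 and KRT10, KRT6B and KRT80, and KRT80 and KRT6C had overlapping ranges.

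**Figure D1:**
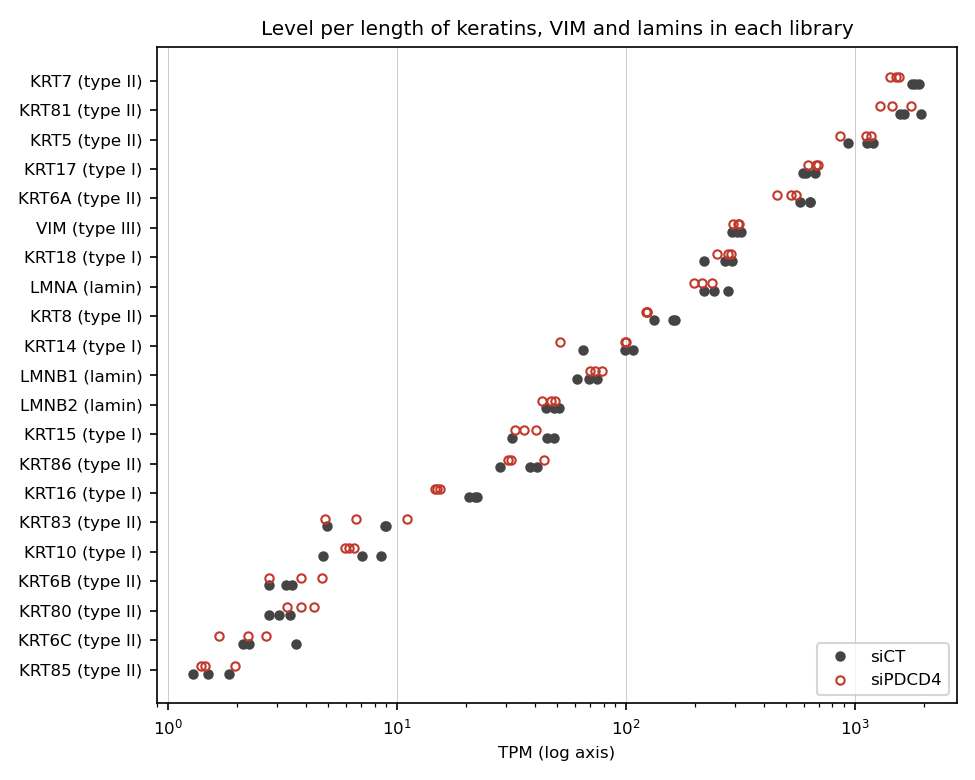
Level in TPM (log axis) of the 21 tested genes in each of the 6 libraries, siCT as filled and siPDCD4 as open points, ordered by the siCT mean. Levels run from 1.55 TPM for KRT85 to 1837 TPM for KRT7, with VIM and the lamins in between, and KRT16 is the one type I keratin whose 2 groups of points stand clear of each other.

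Several of these genes are so alike that reads cannot always be placed, which bears on how far the levels above can be told apart. Windows of 75 bases, the length of 1 read, were compared between transcripts of GENCODE release 44 (GRCh38) that matched those listed by the authors. Each tested gene was represented by its protein-coding transcript with the most counts. Over the whole coding sequence KRT81 and KRT86 were 93.6% identical, and 36.6% of the 75-base windows of KRT81-201 also occurred in another gene, with KRT86 first at 33.0%. The KRT86 gene runs along the plus strand from 52249300 to 52309163 on chromosome 12 and spans KRT81, which lies on the minus strand from 52285913 to 52291534. The pseudogene KRT87P, between 405 and 789 counts per library, shares windows with both.

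The coding sequences of KRT6B and KRT6C, which lie beside KRT6A on the minus strand of the same chromosome, were 97.5% and 97.9% identical to that of KRT6A. A share of 26.2% of KRT6A-201 windows, 34.6% of KRT6B-201 windows and 42.5% of KRT6C-201 windows occurred in another gene. Their levels of 618, 3.17 and 2.67 TPM were far apart, and the part of misplaced KRT6A reads in the values of KRT6B and KRT6C was not tested.

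Among type I keratins, a stretch of 75 bases from the first coding exon is shown for KRT16, which gave the smallest p of all members, and for its relatives KRT14 and KRT17, which had higher levels. The stretches lie at chr17:41612301-41612375 (KRT16), chr17:41586453-41586527 (KRT14) and chr17:41624221-41624295 (KRT17), all on the minus strand. They are written 5′ to 3′ along the transcript, with capitals at positions that are not the same in all 3 genes.
KRT16: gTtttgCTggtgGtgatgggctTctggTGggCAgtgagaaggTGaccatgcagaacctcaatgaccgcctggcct
KRT14: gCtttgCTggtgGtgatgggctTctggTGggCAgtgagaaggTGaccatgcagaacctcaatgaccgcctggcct
KRT17: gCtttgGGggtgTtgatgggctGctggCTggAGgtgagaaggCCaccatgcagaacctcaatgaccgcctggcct

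KRT14 differed from KRT16 at 1 position of this stretch and KRT17 at 11. The stretch is 1 of 549 compared, taken at the median number of positions that vary among the 3 genes. Over the whole coding sequence KRT16 was 86.7% identical to KRT14 and 79.2% identical to KRT17. In all, 9.60% of KRT16-201 windows, 9.28% of KRT14-201 windows and 3.12% of KRT17-201 windows occurred in another gene, pseudogenes included. KRT8 shared 18.8% of its windows, with its own pseudogenes. KRT7, KRT10, KRT15, KRT80, VIM, LMNA, LMNB1 and LMNB2 shared none with the other genes compared.

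Compared to control cells, none of the 21 tested genes passed an FDR of 5% in edgeR after PDCD4 silencing, where 0.429% of the 13047 genes tested did. At an unadjusted p under 0.05 there were 4, KRT16, KRT7, KRT8 and KRT6A, each with a log2 fold change below 0, against 4.52% of all genes with a p under 0.05 below 0 and 4.10% above it. The same 4 genes had all siPDCD4 libraries below all siCT libraries, against 7.14% of all genes, and no member had them all above, against 6.81%. DESeq2, the tool of the study, called 2 members, KRT16 and KRT7, and 1.31% of the 13821 genes it tested. Fewer cells of a type and less RNA per cell cannot be told apart in these bulk libraries.

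KRT16, on chromosome 17 from 41609778 to 41615899, was at 35.3, 33.9 and 33.6 CPM in siCT replicates 1, 2 and 3. In siPDCD4 replicates 1, 2 and 3 it was at 22.7, 24.1 and 23.6 CPM. The groups did not overlap, and the spread within each was under 1 CPM (SD 0.910 and 0.714, n = 3). The log2 fold change was -0.55 ± 0.10, a difference of -31.5% (95% interval -41.4% to -20.0%), with an adjusted p of 0.0518 in edgeR and 0.00258 in DESeq2. KRT16 passed in 4 of the 11 other fits on all 6 libraries and in none of the 6 fits that left out 1 library, where the adjusted p ran from 0.0850 to 0.289. Its log2 fold change stayed between -0.57 and -0.52 in those 6 fits. Its main transcript, KRT16-201, held 95.5% of the KRT16 counts in siCT and had the smallest adjusted p of all member transcripts.

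KRT7, which lies in the type II cluster on chromosome 12, was at 2223, 2238 and 2303 CPM in siCT and at 1813, 1884 and 1737 CPM in siPDCD4 replicates 1, 2 and 3. All siPDCD4 values were lower than all siCT values. Its log2 fold change was -0.32 ± 0.08 (95% interval -29.2% to -8.81%), with an adjusted p of 0.210 in edgeR and 0.00523 in DESeq2. Its main transcript, KRT7-201, shares no 75-base window with another gene, and among the 2 genes called by DESeq2 KRT7 is the one of high level. DESeq2 was the only 1 of the 11 other fits on all 6 libraries that called it. In the 6 fits that left out 1 library its adjusted p ran from 0.134 to 0.636. With only the protein-coding transcripts summed it was at -0.26 ± 0.09 (adjusted p = 0.362 in edgeR). KRT7-201 alone had an adjusted p of 0.994 in DESeq2.

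KRT8, the type II keratin of simple epithelia, was at 249, 237 and 207 CPM in siCT and at 182, 186 and 188 CPM in siPDCD4. The siPDCD4 libraries lay close together and below siCT replicate 3, the lowest control. The log2 fold change of -0.32 ± 0.09 had an adjusted p of 0.225 in edgeR and 0.0622 in DESeq2. With only the protein-coding transcripts summed it was -0.17 ± 0.12 (adjusted p = 0.761 in edgeR). The largest transcript left out of that sum, KRT8-211 with a retained intron, held between 138 and 799 counts in siCT and between 44.2 and 335 in siPDCD4. Beside these lower values of the simple epithelial keratins KRT7 and KRT8, the summed level of the 4 luminal markers ran from 2.71 to 4.08 TPM in siCT and from 4.55 to 5.17 TPM in siPDCD4. Of these, FOXA1 was at 1.22 to 2.44 TPM in siCT and 2.84 to 3.25 TPM in siPDCD4, and GATA3 at 1.38 to 1.55 TPM and 1.61 to 1.90 TPM, with the defining receptors ESR1 and PGR near or at 0. The part of this list in the keratin values was not tested. The annotated start of KRT18, on the plus strand, overlaps the KRT8 gene, and the sources used here do not give the strand setting of the counting.

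KRT6A was at 1329, 1379 and 1470 CPM in siCT and at 1157, 1223 and 1022 CPM in siPDCD4. Its log2 fold change was -0.30 ± 0.09, with an adjusted p of 0.320 in edgeR. Leaving out siPDCD4 replicate 3, the lowest library for KRT6A, gave -0.22 ± 0.10 with an adjusted p of 0.607. Summing KRT6A, KRT6B and KRT6C before the fit gave -0.29 ± 0.09 (adjusted p = 0.332 in edgeR).

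**Figure D2:**
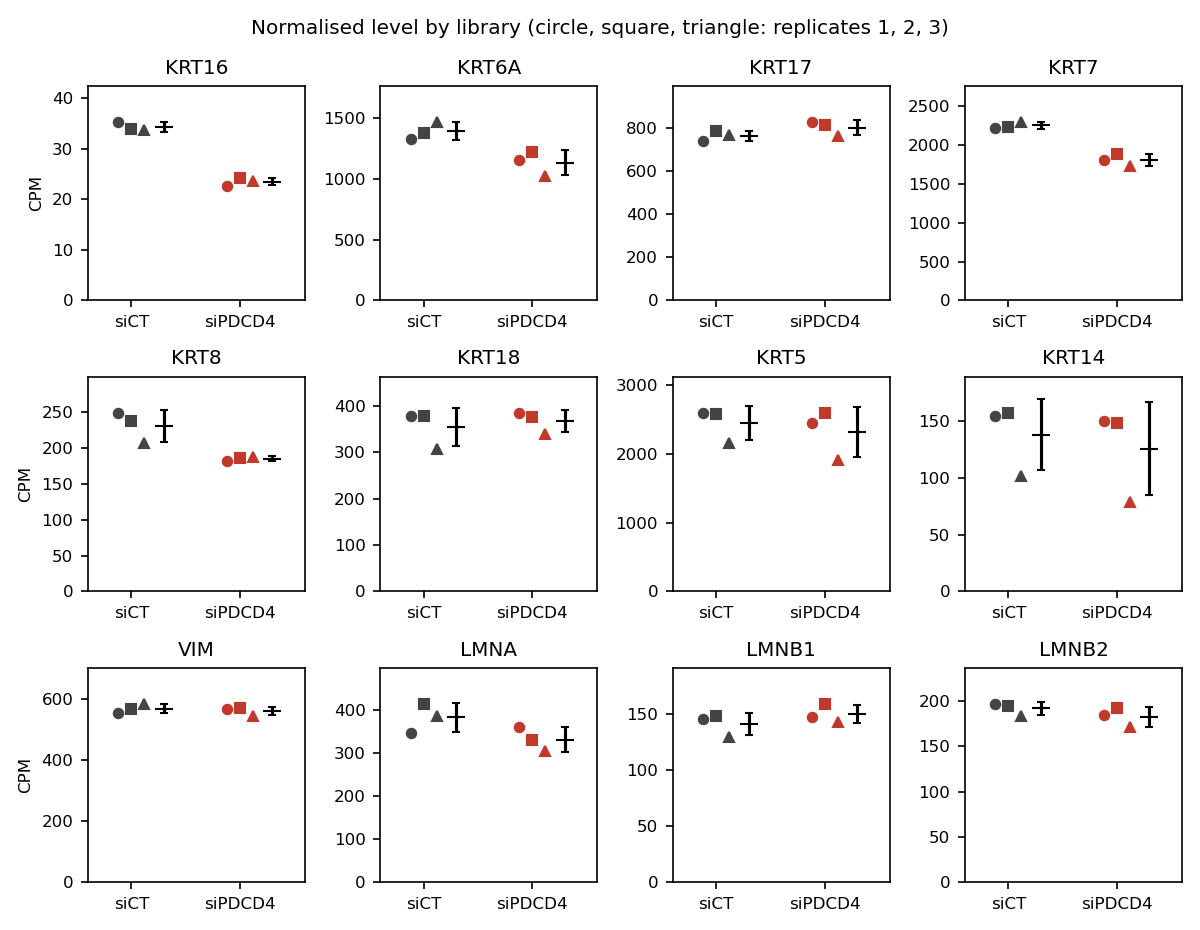
Normalised level in CPM of 12 members in each library, with circle, square and triangle for replicates 1, 2 and 3 and a black bar for mean and SD (n = 3). KRT16, KRT6A, KRT7 and KRT8 are the panels where the siPDCD4 points all lie below the siCT points, while VIM stays between 544 and 583 CPM in all 6 libraries.

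Vimentin did not differ beyond its spread. It was at 552, 567 and 583 CPM in siCT and at 565, 569 and 544 CPM in siPDCD4 replicates 1, 2 and 3. The groups overlapped throughout, and the log2 fold change of -0.02 ± 0.08 gave an adjusted p of 0.985 in edgeR. The 95% interval of the difference ran from -12.2% to 10.8%. A single transcript, VIM-201, held 97.8% of VIM counts in siCT and 97.3% in siPDCD4.

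Plectin, encoded by PLEC, links vimentin and keratin filaments to adhesion sites. Its log2 fold change was -0.07 ± 0.34 with an adjusted p of 0.988, and the siCT libraries spread widely at 798 ± 356 CPM (SD, n = 3), so its SE was larger than that of VIM. PLEC was named after its values were seen.

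The partners of the genes above did not all show the same pattern. KRT17 was at 739, 787 and 766 CPM in siCT and at 829, 812 and 763 CPM in siPDCD4, which gave a log2 fold change of 0.07 ± 0.08. KRT18 was at 379, 379 and 307 CPM in siCT and at 385, 376 and 340 CPM in siPDCD4, which gave 0.05 ± 0.10. The groups of both type I genes overlapped, and their 95% intervals ran from -7.13% to 18.4% for KRT17 and from -11.3% to 20.7% for KRT18. KRT15, with a log2 fold change of -0.23 ± 0.14, KRT81 with -0.21 ± 0.12 and KRT5 with -0.08 ± 0.13 overlapped as well.

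KRT14 was low in replicate 3 of both groups. It was at 154, 157 and 102 CPM in siCT and at 150, 148 and 78.5 CPM in siPDCD4 replicates 1, 2 and 3. The log2 fold change of -0.14 ± 0.29 therefore came with a 95% interval of -44.6% to 49.3%. KRT5, its partner, was also lowest in replicate 3 of each group, at 2161 CPM in siCT and 1916 CPM in siPDCD4. With replicate number as a block in edgeR, KRT14 was at -0.16 ± 0.08 (adjusted p = 0.551) and KRT5 at -0.08 ± 0.08 (adjusted p = 0.787). The replicate numbers were not shown to pair the libraries.

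**Figure D3:**
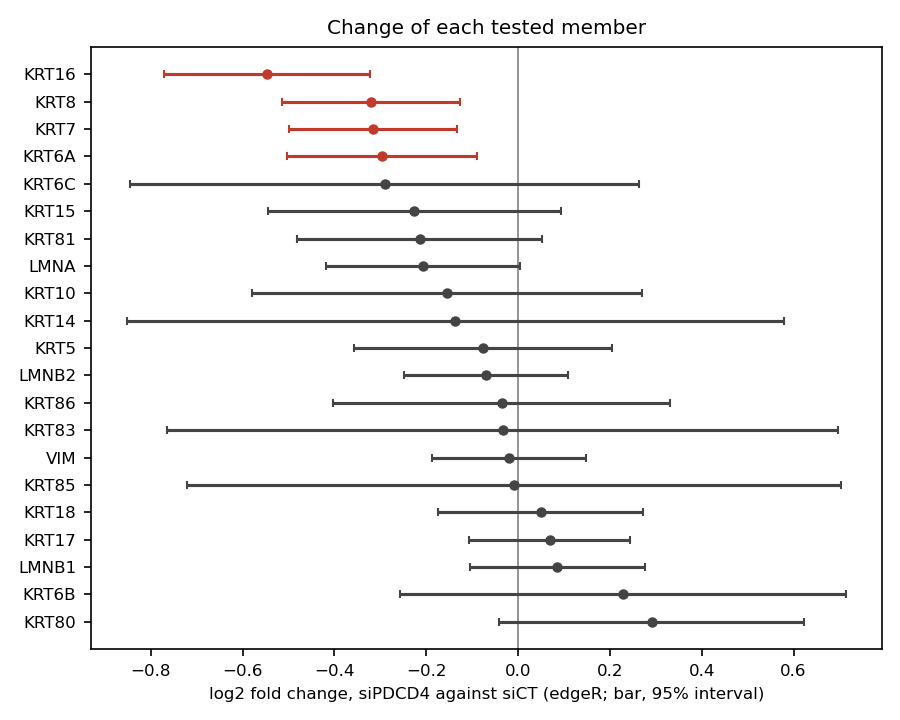
Log2 fold change of each of the 21 tested genes in siPDCD4 against siCT from edgeR, with 95% intervals as bars and in red the 4 genes whose siPDCD4 libraries all lie below the siCT libraries. KRT16 stands lowest at -0.55, VIM lies at -0.02, and KRT14, KRT83, KRT85 and KRT6C have the widest bars.

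Across the 21 tested genes, 16 had a log2 fold change below 0, against 51.3% of all genes, and the median was -0.08 against -0.01 for all genes. This count was 10 when siPDCD4 replicate 3 was left out. By role, the 3 basal keratins KRT5, KRT14 and KRT15 were all below 0 with a median of -0.14, but without siPDCD4 replicate 3 KRT5 was at 0.06 and KRT14 at 0.12, and with protein-coding transcripts only KRT15 was at 0.02. Of the 5 stress keratins, KRT16, KRT6A and KRT6C were below 0 while KRT17 and KRT6B were above it, with a median of -0.29. Of 5 simple epithelial keratins 3 were tested, with KRT7 and KRT8 below 0 and KRT18 above (but at -0.05 without siCT replicate 3), and the median was -0.32. The 4 tested hair keratins of 17, KRT81, KRT83, KRT85 and KRT86, had a median of -0.03, and KRT83, KRT85 and KRT86 were above 0 when siPDCD4 replicate 3 was left out. KRT80, a type II keratin of differentiating epithelia, had the highest log2 fold change of the 21 genes, at 0.29 ± 0.15 with an adjusted p of 0.681 in edgeR.

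Within a library, levels per length can be set against each other without scaling between libraries. Type II keratins held 83.6, 83.8 and 84.4% of all keratin TPM in siCT replicates 1, 2 and 3, and 80.7, 82.5 and 81.0% in siPDCD4. The groups did not overlap, and the difference of -2.56 percentage points had an exact two-sided permutation p of 0.1, the smallest that 3 against 3 libraries allow. The type II total was 5477 ± 394 TPM in siCT and 4745 ± 529 TPM in siPDCD4, and the type I total was 1048 ± 96.8 and 1082 ± 83.9 TPM (SD, n = 3). Each total overlapped between the groups. The ratio of type II to type I was 5.23 ± 0.166 in siCT and 4.38 ± 0.293 in siPDCD4, so transcripts of type II genes were in excess in both. These totals and shares sum all transcripts of each gene, non-coding ones included, and were not taken for protein-coding transcripts only.

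Among the shares of single genes in their type, KRT16 was the one of 10 without overlap, at 2.09, 1.95 and 2.17% of type I TPM in siCT and 1.28, 1.39 and 1.52% in siPDCD4. In the family of 11 shares compared, no adjusted p was below 0.55. KRT7 held 33.6% of type II TPM in siCT and 31.7% in siPDCD4, and KRT81 held 31.4 and 31.6%. KRT17 held 59.8% of type I TPM in siCT and 61.6% in siPDCD4.

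Ratios were taken for 7 pairs of keratins, chosen after values had been seen. All transcripts of each gene were summed, non-coding ones included. KRT8 over KRT18 was 0.589, 0.562 and 0.604 in siCT and 0.422, 0.443 and 0.495 in siPDCD4 replicates 1, 2 and 3, with no overlap. KRT7 over KRT18 was 7.13 ± 1.04 in siCT and 5.48 ± 0.234 in siPDCD4. KRT6A over KRT17 was 0.990 ± 0.0466 in siCT and 0.768 ± 0.0465 in siPDCD4. These 3 ratios were lower in every siPDCD4 library than in any siCT library, and KRT17 over KRT16 was higher, at 28.9 ± 1.56 against 44.3 ± 2.80. Each of the 4 differences had an exact permutation p of 0.1, or 0.175 when adjusted over the 7 pairs. The ratios of KRT5 to KRT14 (exact permutation p = 0.7), KRT6A to KRT16 (exact permutation p = 0.2) and KRT81 to KRT86 (exact permutation p = 0.3) overlapped between the groups. The separation of KRT8 over KRT18 depended on the transcripts summed. By counts of the main coding transcripts, KRT8-218 and KRT18-201, that ratio overlapped between the groups. These had 3457 and 7479 counts in siCT replicate 1, a lower ratio than the 2820 and 5213 counts in siPDCD4 replicate 2.

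**Figure D4:**
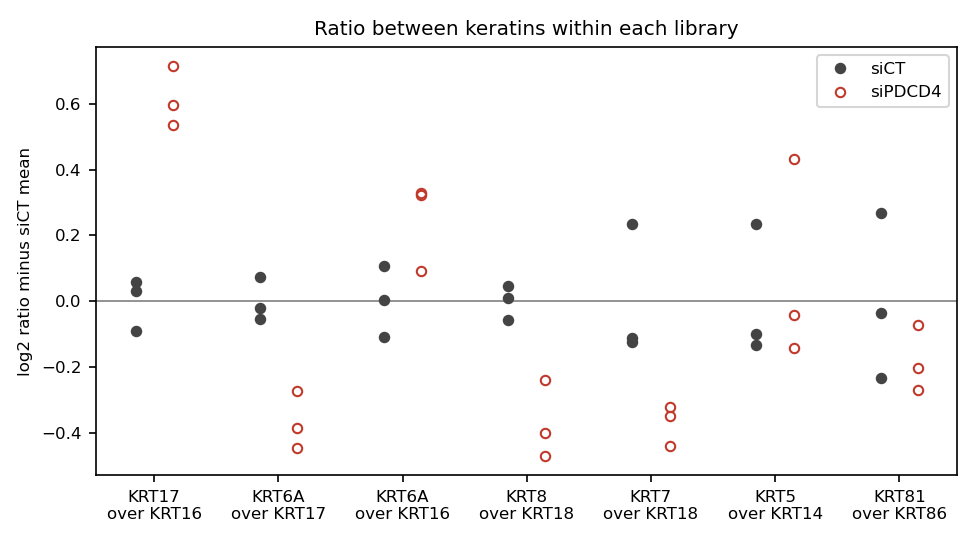
Log2 of the TPM ratio of 7 keratin pairs in each library, minus the siCT mean of the pair, with siCT as filled and siPDCD4 as open points. All transcripts of each gene are summed, non-coding ones included. KRT17 over KRT16 lies above all siCT points, KRT6A over KRT17, KRT8 over KRT18 and KRT7 over KRT18 lie below them, and the other 3 pairs overlap.

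Among the nuclear lamins, LMNA was at 347, 415 and 388 CPM in siCT and at 362, 330 and 305 CPM in siPDCD4 replicates 1, 2 and 3. The groups overlapped through siCT replicate 1. The log2 fold change was -0.21 ± 0.10 (95% interval -25.2% to 0.354%) with an adjusted p of 0.590 in edgeR, and without the correction for transcript length it was -0.08 ± 0.13. LMNB1 was at 146, 148 and 130 CPM in siCT and 147, 159 and 143 CPM in siPDCD4, and LMNB2 was at 197, 195 and 183 CPM and 184, 193 and 171 CPM. Their log2 fold changes were 0.09 ± 0.09 and -0.07 ± 0.08. With protein-coding transcripts only, LMNB1 was at 0.21 ± 0.08 and LMNB2 at 0.07 ± 0.16. Without the correction for transcript length LMNB2 was at 0.05 ± 0.12, so its sign depended on the processing. The LMNB2 to LMNB1 ratio of TPM was 0.705 ± 0.0255 in siCT and 0.631 ± 0.0156 in siPDCD4, without overlap (exact permutation p = 0.1, adjusted p = 0.3 over 3 lamin measures).

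LMNA counts were split among transcripts in a way that differed between libraries of the same group. LMNA-205, which encodes lamin A of 664 residues, held 27.1, 22.7 and 23.3% of LMNA counts in siCT and 23.4, 20.4 and 25.6% in siPDCD4. LMNA-238, which encodes lamin C of 572 residues, had 0, 1280 and 1008 counts in siCT and 967, 2189 and 504 counts in siPDCD4. Lamin A transcripts thus made up 99.4, 42.9 and 41.5% of lamin A and lamin C TPM in siCT, and 48.7, 24.7 and 59.3% in siPDCD4 (exact permutation p = 0.6). The difference of the means was -17.0 percentage points, and it was 2.02 when siCT replicate 1 was left out. The counts per transcript are estimates, and the log2 fold change of LMNA-238 was 0.66 ± 1.55 in edgeR. Whether the 0 of LMNA-238 in siCT replicate 1 means absence was not tested. A retained-intron transcript, LMNA-227, held 49.7 ± 8.23% of LMNA counts in siCT and 45.1 ± 8.19% in siPDCD4 (SD, n = 3), more than either coding form on average.

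**Figure D5:**
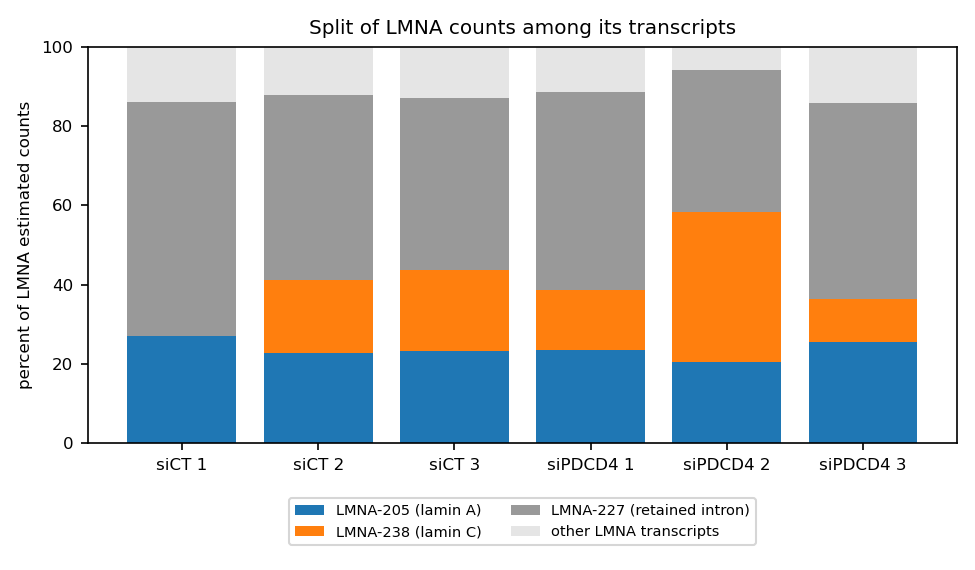
Percent of LMNA estimated counts held by LMNA-205 (lamin A), LMNA-238 (lamin C), LMNA-227 (retained intron) and all other LMNA transcripts in each library. The lamin A share stays between 20.4 and 27.1%, while LMNA-238 is at 0 in siCT replicate 1 and largest in siPDCD4 replicate 2.

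Of 246 transcripts listed for the 60 genes, 93 were tested, from 21 genes. No member transcript passed an FDR of 5% in edgeR, nor did any other of the 47375 transcripts tested (0%). No PDCD4 transcript was thus called either, although the gene had a log2 fold change of -3.25. A transcript without a call in this fit therefore cannot be read as unchanged. At an unadjusted p under 0.05 there were 7 member transcripts, 6 of them lower in siPDCD4, against 3.11% of all transcripts. KRT16-201 had the lowest adjusted p, 0.463 in edgeR, with a log2 fold change of -0.50 ± 0.09. DESeq2 called KRT16-201 alone among them (adjusted p = 0.0429), and 0.643% of the 58191 transcripts it tested. The keratins of highest level each rested on 1 main transcript. KRT81-201 held 100% of KRT81 counts in siCT, KRT6A-201 held 98.8%, KRT5-201 held 98.1% and KRT7-201 held 88.0%. KRT17-201 held 85.3% and KRT17-202, which encodes a short protein of 95 residues, held 11.7%.

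Genes that work with these filaments were counted from 4 lists, and none of them passed an FDR of 5% in edgeR or DESeq2. Plakins, which tie filaments to desmosomes, hemidesmosomes and other structures, were listed with genes that do not all link filaments, among them AIFM1, TRADD, SFN and CSNK1A1. This mixed list had 14 of 15 members tested, 7 above and 7 below 0, with a median log2 fold change of 0.00. The smallest p in that list were those of TCHP, trichoplein, a keratin-binding protein (0.35 ± 0.12, adjusted p = 0.357 in edgeR), and DST, dystonin, which anchors keratins at hemidesmosomes (-0.22 ± 0.08, adjusted p = 0.427). EPPK1, epiplakin, which binds keratins, was at 0.30 ± 0.18 (adjusted p = 0.759 in edgeR).

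The partners of the nuclear lamina, proteins of the inner nuclear membrane and its links to the cytoskeleton, had 16 of 17 members tested, 5 above and 11 below 0, with a median of -0.10. LEMD2, an inner nuclear membrane protein, was at -0.23 ± 0.10 (adjusted p = 0.566 in edgeR) and SUN1, which joins the lamina to the cytoskeleton, at 0.21 ± 0.10 (adjusted p = 0.584). The 6 enzymes and factors of lamin processing had 3 above and 3 below 0. FNTB, the beta subunit of the farnesyltransferase that lipidates lamin precursors, was at -0.27 ± 0.14 (adjusted p = 0.665 in edgeR). Of 11 other cytoplasmic intermediate filament genes, among them DES, GFAP and the neurofilament genes, only SYNC and BFSP1 passed the filter on low counts, at 1.44 and 0.991 CPM in siCT.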

How the data were processed

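Total RNA was sequenced in 6 libraries as paired reads of 75 bases. The authors ran Salmon against the GRCh38 transcriptome and deposited a table of transcripts per library with estimated counts and TPM. The sources used here do not give the version of Salmon. Of 194142 transcripts listed, 181244 were matched by identifier to GENCODE release 44 and summed to 34486 genes. The others, with 5.47 to 6.21% of counts, were not analysed here.

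The sums were rounded to whole counts. They were tested in R 4.3.3 with edgeR 4.0.16 (robust quasi-likelihood fit, TMM factors, filterByExpr, group as the only factor, an offset for average transcript length). The Benjamini-Hochberg adjustment covered all 13047 genes tested, and the threshold was an FDR of 5%. Transcripts were tested without the length offset. The sign ± precedes the SE for log2 fold changes and the SD for levels, shares and ratios. CPM were computed here with the same factors and offset and serve to compare libraries, while TPM, made by the authors, serve to compare genes. Shared windows were counted against the matched GENCODE transcripts only, for the protein-coding transcript of each tested member with the most counts. Shares and ratios were compared with exact permutation tests.

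Alternatives were other normalisations and filters, DESeq2 1.42.0, limma-voom (limma 3.58.1), a replicate block, and leaving out each library. The fits were also run on simulated counts, with changes larger than that of any tested member. That run therefore says nothing of changes as small as those given here. The genes and lists were chosen with earlier results of these data known. Tested members were named, as were untested ones with counts in every library, partner genes with the smallest p, and transcripts with at least 10% of the counts of VIM, LMNA and the 5 highest keratins. Figures were drawn with matplotlib 3.10.9.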

Additional observations from a re-analysis of the deposited data

How the results depend on the processing

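Members past an FDR of 5% numbered 0 with edgeR and in 7 of the 11 other fits on all 6 libraries. They were 1 without the length offset (KRT16, adjusted p = 0.00992), 1 without a filter on low counts (0.0320), 1 with protein-coding transcripts only (0.0449), and 2 with DESeq2 (KRT16 and KRT7). KRT16 had a log2 fold change of -0.53, -0.55, -0.57 and -0.54 in these fits, and KRT7 had -0.31 in DESeq2. The cause was not tested. Over all genes 56 were called, 128 without the length offset, 108 without a filter and 181 with DESeq2. With 1 library left out, 17 to 40 genes were called and 0 members, and the members below 0 numbered 10 to 16. All genes called were 32 without siCT replicate 2 and 17, 22 and 30 without siPDCD4 replicates 1, 2 and 3, and members below 0 were 10 without siPDCD4 replicate 3. Without siCT replicate 3, which stood apart, KRT16 had an adjusted p of 0.0850 and KRT8 of 0.0577 in edgeR. The siCT mean of KRT7 was 1220 TPM with protein-coding transcripts only, against 1837 TPM. DESeq2 called 1 member transcript where edgeR called 0. Of 353 log2 fold changes of single members under these alternatives, 348 stayed on the same side of the threshold and 332 kept their sign. The 5 that crossed the threshold were of KRT16 and KRT7. No member was called in the main fit, so none could lose a call.

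Replicate numbers were not shown to pair the libraries. The deviations of same-numbered libraries correlated at 0.0887, 0.133 and 0.198, and siPDCD4 replicate 1 correlated best with siCT replicate 2. With the replicate block 102 genes were called in all, 0 of them members, and KRT16 had an adjusted p of 0.0559 in edgeR. Counts of at most 14 per library limit what can be said of the keratins that were not tested.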
